A study of Mus musculus with 2 samples.

Results

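The S100 genes encode small calcium-binding proteins, and 10 of them were followed here among 25430 gene names in RNA sequencing of mouse embryonic fibroblasts. The 10 were chosen by gene name from a list drawn up with the FPKM of these libraries already known, and the table lists them as S100A1, S100A3, S100A4, S100A6, S100A8, S100A9, S100A10, S100A11, S100A13 and S100A16. The rule takes the row with the highest mean FPKM for a repeated name, but each of these names had 1 row. Because of that choice, and with 1 library per genotype, levels and ratios below are descriptions of the libraries and carry no test. Mouse embryonic fibroblasts are connective tissue cells put into primary culture from midgestation embryos, here taken at E13.5 from crosses of Sptbn1+/- mice, replated once confluent and grown in serum-containing medium with no further treatment named. The wild type and the Sptbn1 knockout (Sptbn1-/-) had 1 library each. Sptbn1 encodes beta-2 spectrin, a scaffold of the membrane skeleton, and the labels name neither the design of the knockout allele nor the number of embryos behind each culture. FPKM are fragment counts scaled to transcript length and library size. Below, the knockout and the wild type each mean 1 library.

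S100 proteins carry a pair of EF-hand loops, mostly work as dimers, and on binding calcium expose a surface that docks onto target proteins such as annexins and myosin. Some are also released from cells and act as alarm signals through the receptors RAGE (gene Ager) and TLR4. S100a4 is widely used as a fibroblast marker under the name fibroblast-specific protein, S100a6 is calcyclin, S100a10 and S100a11 bind annexins A2 and A1, and S100a8 with S100a9 forms calprotectin, a product of neutrophils and other myeloid cells.

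The stretches upstream of 4 S100 genes are shown first, for the 3 measured members past 1.5-fold and for S100a4, an abundant member with the lowest ratio. They are the 250 bases before the annotated start site in RefSeq on the GRCm38.p6 build, a later build than the one used for the FPKM, written 5′ to 3′ in the direction of each gene. Capitals mark 3 motifs searched on both strands, with no overlap between the matches. The TATA box is spelled TATAAA, the GC box is spelled GGGCGG, and the AP-1 site is spelled TGAGTCA.
S100a8, chr3:90668821-90669070, plus strand: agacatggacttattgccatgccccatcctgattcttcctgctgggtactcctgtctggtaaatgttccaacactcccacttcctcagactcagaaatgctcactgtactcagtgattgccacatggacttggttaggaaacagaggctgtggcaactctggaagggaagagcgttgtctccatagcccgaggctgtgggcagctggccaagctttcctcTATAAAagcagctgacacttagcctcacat
S100a9, chr3:90695722-90695971, minus strand: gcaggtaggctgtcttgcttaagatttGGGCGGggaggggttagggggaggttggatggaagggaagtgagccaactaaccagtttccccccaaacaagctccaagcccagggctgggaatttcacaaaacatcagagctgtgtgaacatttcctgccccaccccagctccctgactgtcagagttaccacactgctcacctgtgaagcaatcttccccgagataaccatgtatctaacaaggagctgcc
S100a11, chr3:93520246-93520495, plus strand: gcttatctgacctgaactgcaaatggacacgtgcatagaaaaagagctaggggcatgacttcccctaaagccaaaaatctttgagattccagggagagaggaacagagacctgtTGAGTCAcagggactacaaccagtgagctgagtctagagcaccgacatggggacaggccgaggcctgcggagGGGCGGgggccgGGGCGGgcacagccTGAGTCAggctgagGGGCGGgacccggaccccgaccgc
S100a4, chr3:90603520-90603769, plus strand: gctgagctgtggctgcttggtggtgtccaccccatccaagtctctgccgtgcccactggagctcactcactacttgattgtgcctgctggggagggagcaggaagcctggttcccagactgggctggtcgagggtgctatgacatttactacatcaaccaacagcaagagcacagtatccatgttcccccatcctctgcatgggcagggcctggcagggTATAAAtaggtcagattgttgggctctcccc
TATAAA began 30 bases before the start site of S100a8 and 31 bases before that of S100a4, whereas in S100a9 it began at base 1 counted from the annotated start, outside the printed stretch. The S100a11 stretch held 3 GC boxes and 2 AP-1 sites and no TATAAA. Among 32851 such windows of all genes in the RefSeq table, 12.4% held the TATA box letters, 32.7% those of the GC box and 4.46% those of the AP-1 site on either strand. A match describes letters and does not show that a factor binds there. Of the 10 members, 9 had a window, with 13 windows in all. The windows of S100a1 and S100a13, which lie head to head, shared 104 bases.

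The fibroblasts carried large amounts of S100 RNA, and 4 genes made up almost all of it. The 10 members summed to 829 FPKM in the knockout and 827 FPKM in wild-type cells, a ratio of 1.00. S100a6, S100a4, S100a11 and S100a10 gave 96.9% of that sum in the knockout and 97.9% in the wild type. The near-equal sums hid a different make-up, since S100a11 supplied 22.4% of the S100 FPKM in the knockout and 10.9% in the wild type. Without S100a11 the sums were 643 FPKM in the knockout and 737 FPKM in wild-type cells, a ratio of 0.873. FPKM are per length, so these levels were set against each other between genes. The part of short transcripts and of the S100a11 copies described below in these levels and shares was not tested. In bulk RNA, more cells of a kind and more RNA per cell cannot be told apart.

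**Figure D1:**
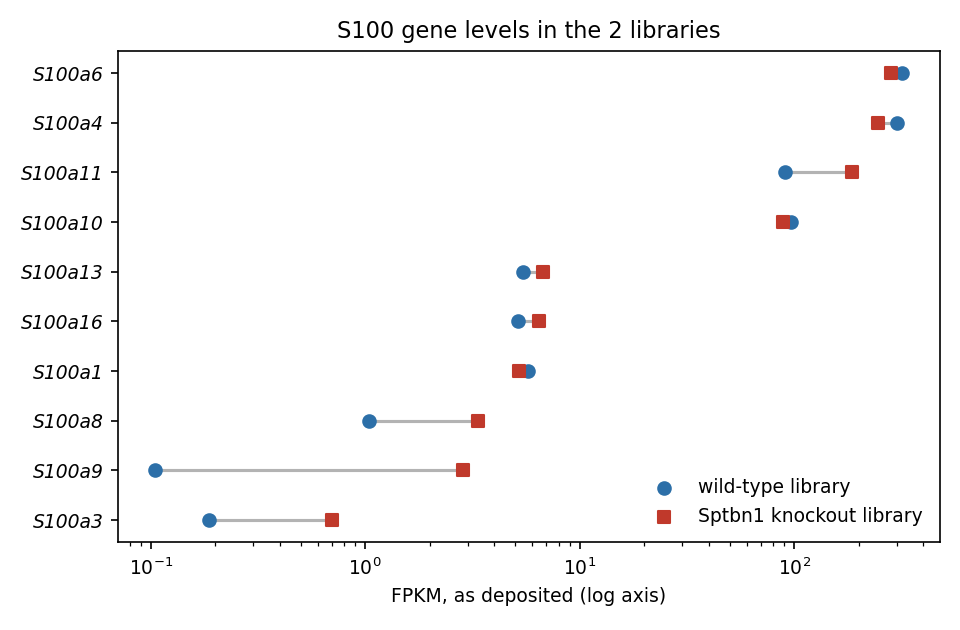
FPKM of each S100 gene on a log axis, with the wild-type library as a circle and the Sptbn1 knockout library as a square, 1 library each and no error bars. S100a11 is at 186 FPKM against 90.2 FPKM in the wild type, the circle and square of each of S100a6, S100a4 and S100a10 lie close together, and S100a8, S100a9 and S100a3 differ most at the low end.

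Differences are given as log2((knockout FPKM + 1)/(wild-type FPKM + 1)), a scale that understates the change of low genes, and a gene is called measured at a mean of at least 1 FPKM. Higher in the knockout by 1.5-fold or more were 3 of 9 measured members (S100a11, S100a8 and S100a9), against 1.04% of 11070 measured genes. None was at least 1.5-fold lower, against 1.23% of measured genes. The same 3 members were also past 2-fold. S100a9 reached the measured limit only through the knockout library, so it had to differ, and the members were listed with these ratios known, so the shares are set side by side and nothing is read from them. The median log2 ratio of the 9 measured members was 0.27 and that of all measured genes -0.05. The member median was 0.075 without S100a9 and -0.12 over members averaging at least 5 FPKM. S100a3 stayed below the measured limit. Scaling both libraries to a common FPKM sum, a shift of 0.47 on the log2 scale, moved the split over all measured genes from 115 higher and 136 lower to 1014 higher and 49 lower. It also put the S100 sum at 1.38 times the wild type, and it took S100a13 (0.68) and S100a16 (0.69) past 1.5-fold, making 5 members higher. On that common sum the median was 0.68 for the measured members and 0.34 for all measured genes.

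**Figure D2:**
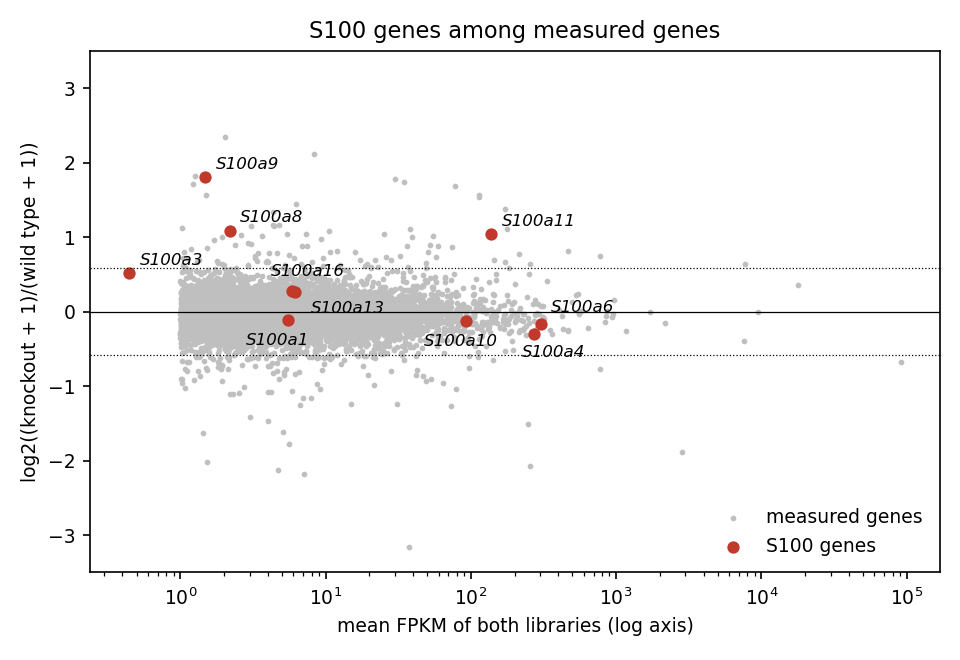
Each grey point is a measured gene and each red point an S100 gene, with mean FPKM of both libraries on a log axis against the log2 ratio of knockout over wild type. Dotted lines mark 1.5-fold, S100a3 lies left of the measured limit, and 22 measured genes beyond 3.5 on the log2 axis are not drawn. S100a11 stands at 1.03 among genes of its level, S100a8 and S100a9 lie above 1 at the low end, and the other measured S100 genes are inside the dotted lines.

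S100a11, also called calgizzarin, binds annexin A1 and takes part in membrane repair and growth control. It was at 186 FPKM in the knockout and 90.2 FPKM in wild-type cells, which is 206% of the wild-type level and a log2 ratio of 1.03. Its place among all genes by FPKM was 86 in the knockout and 229 in the wild type. Of all measured genes 34 had a higher ratio, and of the 460 genes whose mean was at least 50 FPKM, 11 were higher by 2-fold or more. Its p-value, from the authors' deposited table, was 7.43557e-09, the lowest of the 10 members. With 1 library per genotype that p-value holds no spread between cultures.

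The S100a11 transcript has several near-identical processed copies in the genome, and how fragments were shared among them is not shown by the table. Its 511-nt transcript matched 7 processed pseudogenes at 85% identity or more over at least 100 nt. The closest were Gm12854, with 3 mismatches over 297 nt, and Gm7665, with 4 mismatches over 297 nt. None of the 7 has a row under these names in the deposited table. S100a11 was the only member with such pseudogenes. The transcripts of S100a3 and S100a4 each shared a stretch of 100% identity with an overlapping readthrough transcript, Gm42674. Among 872 measured genes with a processed copy of at least 95% identity over 200 nt, 1.15% were at least 1.5-fold higher and 1.26% at least 1.5-fold lower. Of the 68 such genes whose mean was at least 50 FPKM, 1 was at least 2-fold higher, and that was S100a11. S100 transcripts are also short. Among 247 measured genes whose longest transcript has 400 to 800 nt, 4.86% were at least 1.5-fold higher and 6.07% at least 1.5-fold lower. The part of shared copies or short length in the S100 values was not tested.

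S100a10, the neighbour of S100a11 on chromosome 3 and the partner of annexin A2 at the plasma membrane, did not share its difference. It was at 88.3 FPKM in the knockout and 96.5 FPKM in wild-type cells, and its log2 ratio was -0.13. The authors' deposited table lists a p-value of 0.471033. S100a11 had 2.10 times the FPKM of S100a10 in the knockout library, whereas in the wild-type library S100a10 was the higher, at 1.07 times S100a11.

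S100a6 and S100a4 were the most abundant S100 genes in both libraries, and each was slightly lower in the knockout library as deposited. S100a6, which binds the ubiquitin ligase component Cacybp, was at 284 FPKM in the knockout and 319 FPKM in wild-type cells (-0.17). S100a4, whose protein binds non-muscle myosin and is linked to cell motility, was at 245 FPKM in the knockout and 303 FPKM in wild-type cells (-0.30). S100a4 had the lowest log2 ratio of the 10, with 846 of the measured genes lower still. The authors' deposited table lists a p-value of 0.0556872 for S100a4 and 0.27587 for S100a6. The order of this pair was the same in both libraries, with S100a4 at 0.864 times S100a6 in the knockout and 0.949 times in the wild type. On a common FPKM sum, the only scaling that changed a sign, S100a4 was at 0.16, S100a6 at 0.29, S100a10 at 0.33 and S100a1 at 0.28, whereas on that sum taken without small RNA genes and Dnaja1 they were at -0.27, -0.14, -0.10 and -0.09. The direction of these 4 thus turned with whether those rows counted in the sum.

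S100a1, S100a13 and S100a16 were present at a few FPKM in both libraries. S100a1, best known from heart and skeletal muscle, where it acts on calcium release and uptake, was at 5.23 FPKM in the knockout and 5.75 FPKM in wild-type cells (-0.12). S100a13, which takes part in the non-classical release of FGF1 and interleukin-1 alpha, was at 6.77 FPKM in the knockout and 5.46 FPKM in wild-type cells (0.27). S100a16, a widely expressed member, was at 6.49 FPKM in the knockout and 5.17 FPKM in wild-type cells (0.28). Their p-values as listed by the authors' deposited table were 0.742438 for S100a1, 0.427036 for S100a13 and 0.332687 for S100a16. None of the 3 reached 1.5-fold. S100a1 and S100a13, which share upstream bases, had ratios on either side of 0 as deposited.

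S100a8 and S100a9, the calprotectin pair, were low in both libraries and higher in the knockout library. S100a8 was at 3.35 FPKM in the knockout and 1.05 FPKM in wild-type cells, a log2 ratio of 1.09. S100a9 was at 2.87 FPKM in the knockout and 0.105 FPKM in wild-type cells, a log2 ratio of 1.81. S100a9 thus stood at 0.857 times S100a8 in the knockout and at 0.101 times in the wild type. The authors' deposited table lists p-values of 0.0302826 for S100a8 and 0.00437796 for S100a9. With S100a11, the p-values that the authors' deposited table gives to 3 of 9 measured members were under 0.05, against 5.6% of measured genes. S100a9 is among the 9 only through the knockout library, and the members were listed with these data known. Nothing is therefore read from these shares. On a pseudocount of 0.1 FPKM the log2 ratio was 1.59 for S100a8, 3.86 for S100a9 and 1.48 for S100a3.

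The wild-type value of S100a9 was like those of genes of similar transcript length with signal in the wild-type library only. Low FPKM fall on steps left by whole fragments, and 396 of 3100 low rows lay within 0.005 of 0.69 in the log2 of knockout over wild-type FPKM with no pseudocount, which makes the FPKM of 1 fragment 1.61 times as large in the knockout. Dividing the FPKM ratio by that factor gives the ratio of fragments, not scaled for the lesser depth of the knockout library. It was 1.99 for S100a8, 16.9 for S100a9, 2.33 for S100a3 and 1.28 for S100a11, and 0.502 to 0.779 for the other 6 members. For comparison, 31 single-transcript genes of 450 to 600 nt with signal in the wild-type library only had a median of 0.109 FPKM there, with quartiles of 0.0800 and 0.154 FPKM. S100a9, whose transcripts have 512 to 519 nt, had a wild-type value between these quartiles. The converse set of 10 genes, with signal in the knockout library only, had a median of 0.165 FPKM. The sources used here do not state the number of fragments, so no counting interval was computed. S100a3, best known from the hair cuticle, was at 0.701 FPKM in the knockout and 0.187 FPKM in wild-type cells (0.52). Its p-value was 0.0784191 by the authors' deposited table.

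Most macrophage markers were lower in the knockout as deposited, where the calprotectin pair was higher. All 19 macrophage marker rows were measured, and 17 of them lay below 0, with a median of -0.34 as deposited and 0.10 on a common FPKM sum. That sum put the median of all measured genes at 0.34, against -0.05 as deposited. The other scalings kept the macrophage median between -0.31 and -0.28. Their FPKM summed to 855 in the knockout and 1356 in the wild type, ranging from 2.50 to 572 and from 2.52 to 979. The complement genes C1qb (13.7 FPKM in the knockout and 25.4 in the wild-type library, -0.85) and C1qc (-0.56), the joined row of the lysozyme genes Lyz1 and Lyz2 (-0.77) and the Fc receptor chain gene Fcer1g (-0.56) had the largest differences. C1qb and the lysozyme row were past 1.5-fold as deposited, and no macrophage marker was past 1.5-fold lower on a common FPKM sum. Of 16 neutrophil markers 3 were measured, and they went both ways. Lcn2, the siderophore-binding lipocalin, was at 5.42 FPKM in the knockout and 2.72 FPKM in wild-type cells (0.79), Mmp9 was at -0.34 and Il1b at -0.20. The neutrophil markers summed to 22.2 FPKM in the knockout and 23.0 FPKM in wild-type cells. Mmp9 alone gave 12.5 FPKM of that sum in the knockout and 16.1 FPKM in the wild type, so the sums mainly follow this gene. The defining genes Ly6g and Cebpe were listed at 0 in both libraries, Elane was listed at 0 in the knockout and 0.0451 FPKM in the wild type, Mpo was at 0.0462 and 0.0143 FPKM, and the granule gene Ngp was at 0.331 FPKM in the knockout and listed at 0 in the wild-type library. The remaining markers below the measured limit also went both ways (FPKM, knockout first). Trem1 (0.677 and 0.336), Prtn3 (0.204 and 0.0422), Ltf (0.0853 and 0.0149), Cxcr2 (0.0191 and 0.0118) and Csf3r (0.291 and 0.287) were higher in the knockout. Camp (0.126 and 0.235), Mmp8 (0.336 and 0.566) and Retnlg (0 and 0.0768) were lower. The Cxcr2 FPKM ratio of 1.61 equals the factor per fragment given above, so equal fragment numbers in both libraries would give it. Markers this low can rest on single fragments, so their directions are listed and nothing is read from them. Macrophages also express S100a4, S100a6, S100a10 and S100a11, and the part of such cells in the S100 values was not tested.

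The known receptors and binding partners stayed close to even. Of 30 listed, 23 were measured, 8 above and 15 below 0, none past 1.5-fold, with a median of -0.05 (0.41 on a common FPKM sum). On a pseudocount of 0.1 FPKM 1 was past 1.5-fold lower, and on a common FPKM sum 2 were past it higher. Anxa1, the partner of S100a11, was at 123 FPKM in the knockout and 143 FPKM in wild-type cells (-0.21). Anxa2, the partner of S100a10, was at 119 FPKM in both libraries (0.01). Ahnak, a giant scaffold that S100a10 and annexin A2 bind, was at 72.2 and 74.6 FPKM (-0.05), and Cacybp at 15.2 and 14.8 FPKM (0.04), knockout first. The receptor gene Tlr4 was at 2.44 FPKM in the knockout and 2.55 FPKM in wild-type cells (-0.04), while Ager was at 0.410 and 0.170 FPKM, below the measured limit. The largest differences in this list were those of Cd33 (-0.54) and Cd36 (-0.43), both also expressed by myeloid cells, the calcium pump gene Atp2a2 (-0.25) and Ezr (0.24).

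Among related calcium-binding families, the annexins had 9 measured genes, 2 above and 7 below 0, with a median of -0.08 (0.36 on a common FPKM sum). Anxa8 alone of these passed 1.5-fold, at 15.5 FPKM in the knockout and 8.43 FPKM in wild-type cells (0.81), with Anxa5 at -0.14 and Anxa7 at -0.12. The other EF-hand proteins, such as calmodulins, reticulocalbins and calpain subunits, had 36 measured genes, 9 above and 27 below 0, none past 1.5-fold, and a median of -0.09 (0.35 on a common FPKM sum, where 7 were past 1.5-fold higher). Rcn2, a reticulocalbin, was at -0.52, the calmodulin gene Calm3 at 0.38, Pef1 at -0.24 and the myosin light chain gene Myl6 at 0.23. The measured S100 members thus spanned from -0.30 to 1.81 and the other EF-hand genes from -0.52 to 0.38. The value of 1.81 is that of S100a9, which reached the measured limit only through the knockout library, and S100a8 came next at 1.09. The members were also listed with their ratios known. This difference in span was not tested, and nothing is read from it.

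**Figure D3:**
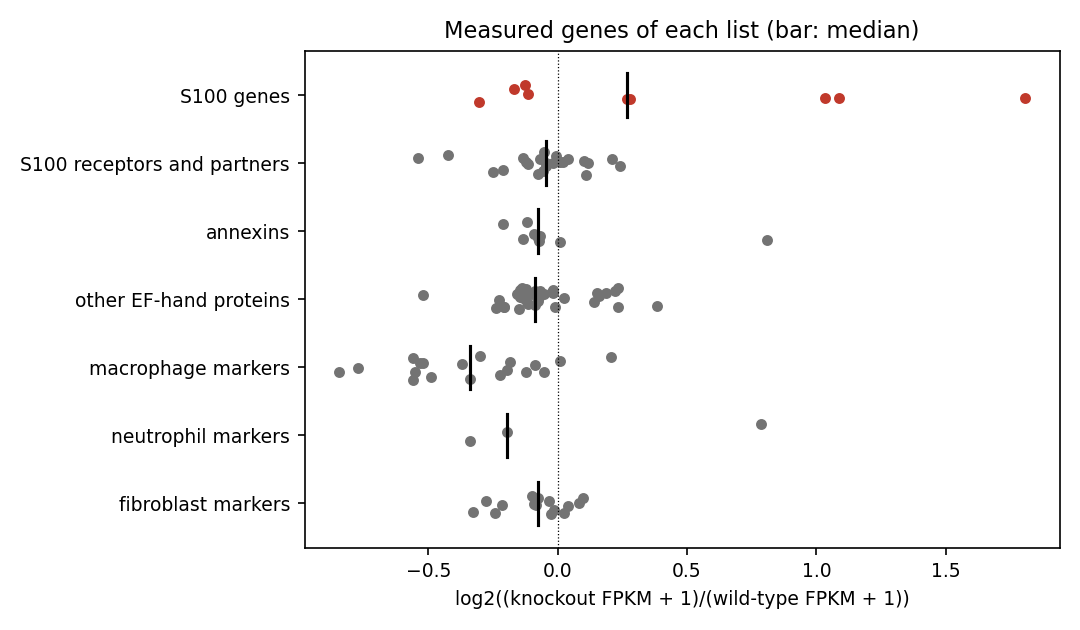
Each point is a measured gene, placed by its log2 ratio of knockout over wild type, and the bar is the list median; vertical scatter within a list has no meaning. S100a8, S100a9, S100a11, Anxa8 and the neutrophil marker Lcn2 lie right of 0.58, which is 1.5-fold on this axis, and macrophage markers lie mostly left of 0.

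Apart from S100g, the remaining S100 genes were hardly expressed. Of 16 further S100, S100-binding and fused S100 genes, 15 matched a row, 7 were listed at 0 in both libraries and 2 were measured. S100pbp, which encodes an S100P-binding protein rather than an S100 protein, was at 12.1 FPKM in the knockout and 11.8 FPKM in wild-type cells (0.03). S100g, calbindin-D9k of the intestine, was at 2.25 FPKM in the knockout and 2.80 FPKM in wild-type cells (-0.23). Its mean of 2.53 FPKM was above the means of S100a8 (2.20 FPKM) and S100a9 (1.49 FPKM). The glial gene S100b was at 0.220 and 0.456 FPKM, knockout first. S100a5, which lies between S100a4 and S100a6, was at 0.408 FPKM in the knockout and 0.127 FPKM in wild-type cells, below the measured limit in both.

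All 10 members lie on mouse chromosome 3, and in the RefSeq gene order they form a run from S100a1 to S100a9 and a pair, S100a11 and S100a10, set apart by 56 protein-coding genes. Of those 56, mostly genes of the cornified skin layer, 52 matched a row, 37 were listed at 0 in both libraries and 1 (Lce1g, mean 1.01 FPKM) was measured. Taking 10 protein-coding genes on each side of every member gave 9 measured neighbours, none past 1.5-fold, with a median of -0.01 (0.40 on a common FPKM sum). The largest differences were those of Them4 (-0.26), Ilf2 (0.13), Snapin (-0.10) and Ints3 (0.09). S100a8 and S100a9 adjoin each other. No measured gene outside the members lay within 10 protein-coding genes of either, and only Them4 did so for S100a11. The other measured neighbours all lay before S100a1 in the gene order. These values thus say little about the surroundings of S100a8, S100a9 and S100a11. S100a11 and S100a10, which have no protein-coding gene between them, lay on opposite sides of 0 as deposited.

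**Figure D4:**
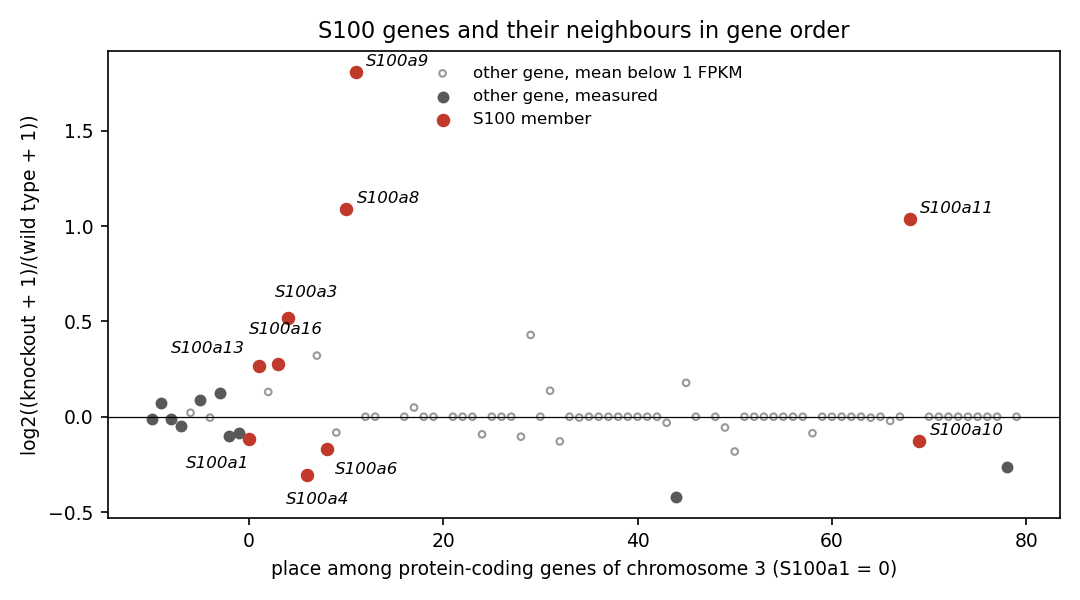
Log2 ratio of knockout over wild type for protein-coding genes of chromosome 3 in RefSeq order, with S100a1 at place 0. Red points are S100 members, dark points other measured genes and open points other genes with a mean below 1 FPKM. S100a8, S100a9 and S100a11 stand at 1.03 or more, and the dark points lie between -0.42 (Lce1g) and 0.13 (Ilf2).

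The knockout label was checked on its own gene. Sptbn1 was at 36.6 FPKM in the knockout and 69.6 FPKM in wild-type cells (-0.91), or 52.5% of the wild-type level, so the direction matched the labels while much signal was still counted. A common FPKM sum, a shift of 0.47 on the log2 scale, would make this difference smaller. All 15 fibroblast markers were measured, with 4 above and 11 below 0 and a median of -0.08 (0.39 on a common FPKM sum). Dcn was at -0.33, Twist1 at -0.28, Pdgfra at -0.24 and Postn at -0.22. Epithelial markers had 1 measured gene (Krt18, 0.01), striated muscle markers 2 (Des, -0.34, and Tnnt2, 0.32), cartilage and bone markers 4 (Col2a1, 1.57, Spp1, -1.51, Sox9, 0.28, and Runx2, -0.01) and neural and glial markers 6, with Fabp7 (0.69), Gfap (0.58) and Sox10 (-0.38) among them.

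The genes nearest to a member in both libraries at once were sought for the highest and lowest ratio, by distance in log2(FPKM + 1) over these 2 libraries only. For S100a9 they were LOC100503585, Col2a1 and Gbp2b, at distances of 0.20, 0.20 and 0.21. For S100a4, Dcn and Timp1 were among them, at distances of 0.04 and 0.11. Timp1 was at 264 FPKM in the knockout and 307 FPKM in wild-type cells.

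**Figure D5:**
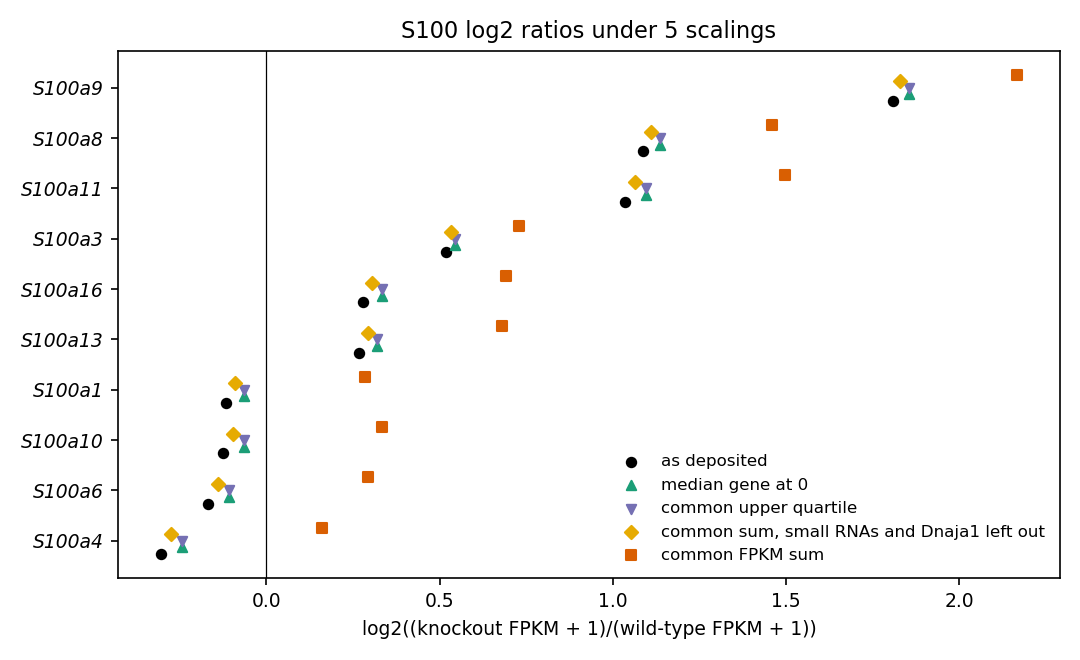
Log2 ratio of each S100 gene as deposited and under 4 other scalings of the knockout library. S100a11, S100a8 and S100a9 are at 1.03 or more under all 5 scalings, and S100a1, S100a4, S100a6 and S100a10 pass from below to above 0 on a common FPKM sum. All 4 other scalings raise the knockout, so none could lower a ratio.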

How the data were processed

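The submitters' processing notes and the series' design text name FastQC, Trimmomatic, TopHat2 2.0.10 for alignment to NCBI mouse build 37.2, and Cufflinks with Cuffdiff2. Per the file headers, the authors deposited FPKM per gene for 1 knockout and 1 wild-type library and a p-value per gene. The wild-type column also carries a -/- mark, and it was assigned by the WT in its name, which is that sample's title. The deposited log2 column was not used. FPKM summed to 279927 in the knockout and 386567 in the wild-type library. Names were matched to RefSeq symbols (GRCm38.p6), older names included (Sptbn1 is listed as Spnb2), and lengths and copies came from GENCODE vM21 with blastn 2.17.0. Ratios used a pseudocount of 1 FPKM, and the ratio and depth steps were tested on simulated data. With 1 library per group no test was run.

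The members, lists and settings were chosen with earlier results of these data known, and the processed-copy and short-transcript shares after the values here were seen. The text names all members, 6 set partners, Sptbn1, up to 4 measured genes of largest difference per list or neighbourhood, and the 3 genes nearest to 2 members. Some genes that this rule takes are not reported here. Other genes, such as neutrophil markers near 0, S100b, Lce1g and the pseudogenes, were named after their values were seen. The lists were further S100 genes, receptors and partners, other EF-hand proteins, annexins, chromosome neighbours, and markers of macrophages, neutrophils, epithelium, neural cells, cartilage and bone, striated muscle and fibroblasts.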

Additional observations from a re-analysis of the deposited data

How the results depend on the processing

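S100a11, S100a8 and S100a9 had log2 ratios of 1.03 to 1.5, 1.09 to 1.59 and 1.81 to 3.86 over the alternatives that give them a value. None of these alternatives could turn their direction. Each scaling raised the knockout (factors of 1.02 to 1.38), a smaller pseudocount widens a ratio, and the other settings left it unchanged. The lower end of each range is thus the value as deposited. The common FPKM sum shifted ratios by 0.47. It gave 5 members at least 1.5-fold higher, with S100a13 and S100a16 added, and a summed S100 ratio of 1.38. The member median was 0.68 and that of all measured genes 0.34, against 0.27 and -0.05 as deposited. The macrophage marker median was 0.10, and 1014 measured genes were higher and 49 lower in place of 115 and 136. The other scalings (median gene at 0, common upper quartile, and the sum without small RNA genes and Dnaja1) shifted ratios by 0.03 to 0.06 and changed no member's sign. A pseudocount of 0.1 FPKM moved S100a3 to 1.48 and gave 207 genes higher and 278 lower, and 2-fold gave 40 and 42. Keeping genes averaging at least 5 FPKM left 67 higher and 77 lower and 1 member (S100a11), with a member median of -0.12, since S100a8 and S100a9 are below that limit. The median was 0.075 without S100a9. Leaving out S100a6 put S100a11 at 34.1% of the S100 sum in the knockout and 17.8% in the wild-type library. No library could be left out, and no paired analysis was possible because each group had 1 library. The fragments behind S100a3, S100a8 and S100a9 could not be counted.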
